A study of Homo sapiens with 4 samples.

Results

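The T cell receptor complex and the proteins that act directly downstream of it were followed through 47 genes, listed by name as receptor and CD3 chains, tyrosine kinases, adaptors, exchange factors and brakes. All 47 names matched 1 row each among the 64252 Ensembl gene IDs of the count table, and all 47 entered the test. The RNA came from J.gamma1, an established T-ALL (T-cell acute lymphoblastic leukaemia) line that was derived from Jurkat and is known to be deficient in PLCG1, the phospholipase of the pathway. The FB23-2 group received 10 µM FB23-2, a small-molecule inhibitor of the RNA m6A demethylase FTO, and the control group received the DMSO vehicle at under 0.1%. Cells of both groups were collected after 48 h, and each group held 2 biological replicates according to the labels. The labels name no receptor stimulation, so the comparison asked how the inhibitor changed the RNA of this machinery in cultured cells of 1 line.

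The receptor consists of an alpha and a beta chain that recognise antigen and of CD3 and zeta chains that carry the signal inwards. LCK and FYN phosphorylate the CD3 and zeta tails, ZAP70 binds there, and ZAP70 then phosphorylates the scaffolds LAT and LCP2, on which adaptors, exchange factors and phospholipase C assemble. Kinases, phosphatases and ubiquitin ligases of the brake group return the complex to rest. In T-ALL the complex helps to mark the maturation stage at which a leukaemia is arrested.

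Library totals were 37804516 and 33983246 counts with FB23-2 and 24615359 and 34897961 in control. The T cell markers CD3D, CD3E, CD3G, CD247, TRAC, CD2, CD5, CD7, CD28 and LCK all had counts, with a summed level of 1253 to 1327 CPM (counts scaled to a common library size after TMM normalisation) with FB23-2 and 1709 to 1728 CPM in control. CD3D, CD3E, CD3G, CD247, TRAC and LCK are also members of the module and make up most of this sum. Its lower level with FB23-2 therefore restates their values and is not a separate result. Markers of other lineages were low in sum. The B cell list stood at 46.2 to 47.9 CPM with FB23-2 and 42.1 to 48.4 in control, nearly all of it CD79A. The natural killer list stood at 6.52 to 6.95 and 4.03 to 4.59 CPM, with KLRF1 at 0 counts. Myeloid (1.77 to 2.49 CPM), erythroid (0.415 to 0.721 CPM) and epithelial or fibroblast genes (9.34 to 10.5 CPM) were at like levels in both groups, apart from COL1A2 with 7 and 0 counts under FB23-2 against 62 and 74 in control. The part of these genes in the results was not tested.

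The module split in both directions rather than moving as 1 unit. Of the 47 genes, 21 fell, 15 rose and 11 did not pass (edgeR quasi-likelihood test, adjusted p under 0.05). The median log2 fold change was -0.06, against 0.0 over all 18817 tested genes, of which 20.3% fell, 21.8% rose and 42.1% changed in either direction. As 46 members had a mean of at least 10 CPM, where more genes pass, the background at that level is closer: there 27.2% of genes fell, 31.6% rose and 58.8% changed in either direction, against 76.6% of the members. Changes were moderate in size, with a median absolute log2 fold change of 0.45 among members that passed and 0.5 among all genes that passed. Falls of at least 0.5 were seen in 9 of the 47 members, against 11.3% of all tested genes. Rises of at least 0.5 were seen in 7 of the 47, against 9.62% of all tested genes. Both background shares cover genes of all levels, not only those at a mean of at least 10 CPM. The FB23-2 and control libraries did not overlap for 43 members, which was also true of 70.8% of all tested genes. That share too covers genes of all levels, so it is not matched to the members. In RNA from bulk cultures, fewer cells of a state and less RNA per cell cannot be told apart, and levels are relative to the other RNA of a library.

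**Figure D1:**
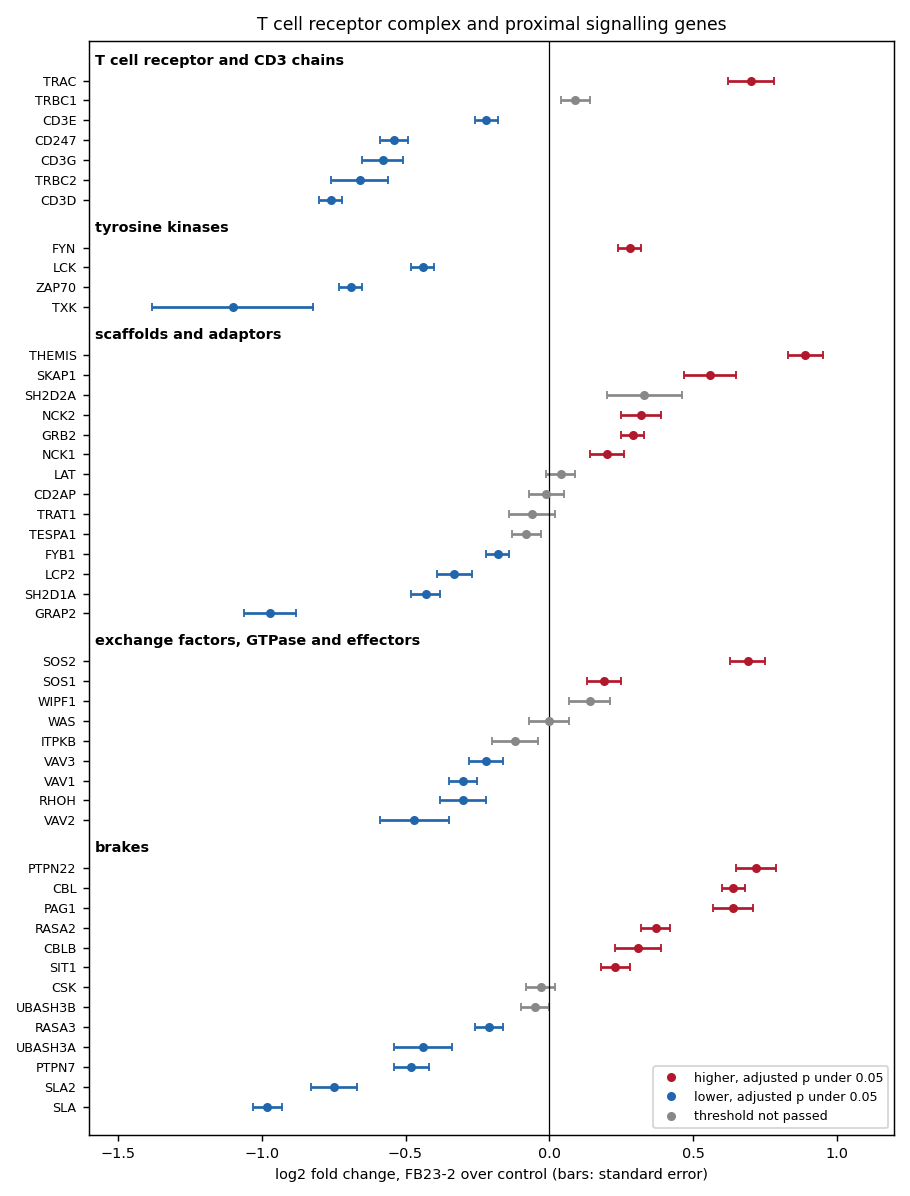
Log2 fold change of each of the 47 genes (x axis, FB23-2 over control) with its standard error as a bar, in blocks by role, with genes that passed the threshold in red (higher) or blue (lower) and others in grey. Receptor and kinase genes lie mostly to the left of 0, while adaptors, exchange factors and brakes spread from -0.98 to 0.89.

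Of the receptor chains, the signal-transducing CD3 and zeta genes were lower while the antigen-binding alpha chain was higher. In this block 5 of 7 genes fell and 1 rose, with a median of -0.54. Of all genes at a mean of at least 10 CPM, 27.2% fell and 31.6% rose. The 5 include TRBC2, whose value apart from TRBC1 is uncertain. CD3D, the delta chain that pairs with CD3E, was at 165 and 166 CPM with FB23-2 against 278 and 281 CPM in control. The groups were far apart relative to the spread of their libraries, and the log2 fold change was -0.76 ± 0.04 (SE, edgeR adjusted p = 1.48e-06). CD3G, the gamma chain, was at 107 and 95.9 CPM against 159.9 and 145 CPM (-0.58 ± 0.07, edgeR adjusted p = 1.75e-04). CD247, which encodes the zeta chain with most of the phosphorylation motifs of the complex, was at 72.1 and 69.1 CPM against 103 and 102 CPM (-0.54 ± 0.05, edgeR adjusted p = 4.14e-05). CD3E fell less, from 457 and 471 CPM to 413 and 384 CPM (-0.22 ± 0.04, edgeR adjusted p = 0.00314). Its call was lost without control replicate 2 (adjusted p = 0.0575, range over the alternatives 5.75e-04 to 0.0575).

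CD3E, CD3D and CD3G lie side by side on chromosome 11 and occupy 50617 bases of hg38 in all. CD3E spans 118304545 to 118316175, CD3D 118338954 to 118342744 on the minus strand and CD3G 118344344 to 118355161, so that CD3D and CD3G start 1600 bases apart on opposite strands. The ratio of CD3D to CD3E counts per exon base was 1.22 and 1.32 with FB23-2 and 1.86 and 1.83 in control. The ratio of CD3G to CD3E was 0.193 and 0.185 against 0.26 and 0.228. Both ratios were lower in each FB23-2 library than in each control library. CD247 lies apart, on chromosome 1 from 167430640 to 167518610.

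TRAC, the constant segment of the alpha chain (chromosome 14, 22547506 to 22552154), was at 38.1 and 36.0 CPM with FB23-2 and 23.7 and 22.0 CPM in control. Both treated libraries lay above both controls, and the gene rose by 0.70 ± 0.08 (log2, edgeR adjusted p = 1.35e-04). TRBC1 and TRBC2 are near-identical constant segments of the beta chain on chromosome 7 (142791694 to 142793368 and 142801041 to 142802748), between which reads can be misassigned, so their separate values are uncertain. TRBC1 was at 224 and 228 CPM with FB23-2 and 223 and 201 CPM in control, and its difference was 0.09 ± 0.05 (edgeR adjusted p = 0.18). That difference was called when libraries were scaled by their totals alone (0.0473, all alternatives giving 0.0473 to 0.803). TRBC2, the minor of the pair, was at 16.8 and 15.3 CPM against 23.6 and 26.8 CPM (-0.66 ± 0.10, edgeR adjusted p = 8.44e-04). Per exon base, TRBC1 counts exceeded TRBC2 counts 13.3 and 14.9 times with FB23-2 and 9.43 and 7.49 times in control.

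Variable segments were counted apart from the constant ones. TRAV8-4, TRBV12-3 and TRBV12-4 were looked at as segments known from Jurkat cells or near-identical to one. TRAV8-4 was at 17.4 and 20.0 CPM with FB23-2 and 11.8 and 11.6 CPM in control, a rise of 0.67 ± 0.12 next to the 0.70 of TRAC (edgeR adjusted p = 0.00152). TRBV12-3 was at 29.0 and 28.2 CPM against 37.5 and 38.3 CPM, a fall of -0.41 ± 0.07 (edgeR adjusted p = 0.00172), while the abundant constant segment TRBC1 did not pass. TRBV12-4, a close relative of TRBV12-3 that may share its reads, had a log2 fold change of -0.44 ± 0.13 (edgeR adjusted p = 0.0185), a call lost with DESeq2 (0.0835) and on leaving out FB23-2 replicate 2 (0.0901), control replicate 1 (0.0625) or control replicate 2 (0.106). Its alternatives ranged from 0.0123 to 0.106. The delta constant segment TRDC had 0 counts in all libraries, where 3 counts correspond to 0.079 to 0.122 CPM.

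Levels were also expressed as CPM per kilobase of annotated exon, with the exons of all transcripts of a gene merged. The transcript in use may be shorter, so the order of different genes is approximate, and TRBC1 and TRBC2 are uncertain apart. CD3D led the receptor chains in control at 301, followed by TRBC1 (279), CD3E (163), CD3G (39.8), TRBC2 (33.2), CD247 (25.4) and TRAC (23.4). With FB23-2 the order of these levels was TRBC1 (298), CD3D (178), CD3E (140.1), TRAC (37.9), CD3G (26.5), TRBC2 (21.2) and CD247 (17.5). On this scale TRAC moved from the lowest place to above CD3G, TRBC2 and CD247. No chain overlapped its neighbour in either order when the lowest and highest library were compared.

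**Figure D2:**
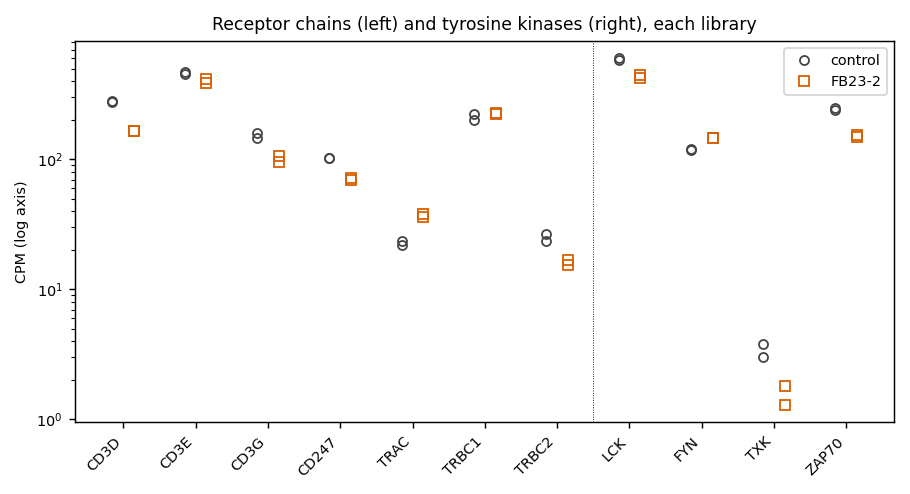
CPM (log axis) of each receptor chain and each tyrosine kinase in every library, with open circles for the 2 control and open squares for the 2 FB23-2 libraries. CD3D, CD3G, CD247 and ZAP70 sit lower in both FB23-2 libraries and TRAC and FYN higher, while TRBC1 sits at 201 to 228 CPM throughout.

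Of the 4 kinases that start the signal, LCK, ZAP70 and TXK were lower and FYN was higher, and 58.8% of all genes at a mean of at least 10 CPM changed in either direction. ZAP70, the kinase recruited to phosphorylated CD3 and zeta chains (chromosome 2, 97713560 to 97739862), was at 155 and 149 CPM with FB23-2 and 241 and 249 CPM in control. It was lower in both treated libraries (-0.69 ± 0.04, edgeR adjusted p = 3.5e-06). LCK, the Src-family kinase that acts first (chromosome 1, 32251239 to 32286165), was the most abundant kinase of the module, at 448 and 421 CPM against 602 and 577 CPM (-0.44 ± 0.04, edgeR adjusted p = 4.4e-05). FYN, the second Src-family kinase of T cells, moved the other way, from 121 and 118 CPM to 145 CPM in both FB23-2 libraries (0.28 ± 0.04, edgeR adjusted p = 8.03e-04). Per exon base, the FYN to LCK ratio was 0.146 and 0.155 with FB23-2 and 0.0904 and 0.0925 in control, so LCK remained the more abundant RNA in each library. TXK, a Tec-family kinase, was scarce, with 69 and 45 counts under FB23-2 and 92 and 104 in control, or 1.81 and 1.3 CPM against 3.82 and 3.02 CPM. Its fall of -1.1 ± 0.28 was the largest of the module but the least precise (edgeR adjusted p = 0.0107), and was not called without FB23-2 replicate 2 (0.0672) or control replicate 1 (0.0683), all alternatives giving 0.00589 to 0.0683.

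Promoter windows are shown for the members with the 3 lowest and 3 highest log2 fold changes among those past the threshold, at a mean of at least 10 CPM, for which RefSeq gives a start within 100 bases of the annotated one, with 1 chromosome not considered. The windows come from RefSeq (GRCh38.p14) and hold the bases upstream of the start, up to 250, that lie outside annotated exons of the gene. Capitals mark matches on either strand to CACGTG (the E-box that MYC and MAX bind), CCGGAA (an ETS core), TGTGGT (a RUNX core) or CAGGTG (an E-box of E-proteins). The matches do not overlap one another in these windows, and CAGGTG has no match in the bases printed. The lines are CD3D at chr11:118342745-118342955 (minus strand), ZAP70 at chr2:97713326-97713559 (plus), CD247 at chr1:167518611-167518779 (minus), THEMIS at chr6:127918632-127918845 (minus), PTPN22 at chr1:113871760-113871962 (minus) and SOS2 at chr14:50231579-50231828 (minus), each printed 5′ to 3′ on the strand of its gene.
CD3D: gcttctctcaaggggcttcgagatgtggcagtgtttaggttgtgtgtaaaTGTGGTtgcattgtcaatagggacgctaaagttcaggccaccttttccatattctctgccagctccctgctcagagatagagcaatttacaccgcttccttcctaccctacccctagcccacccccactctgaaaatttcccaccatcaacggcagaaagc
ZAP70: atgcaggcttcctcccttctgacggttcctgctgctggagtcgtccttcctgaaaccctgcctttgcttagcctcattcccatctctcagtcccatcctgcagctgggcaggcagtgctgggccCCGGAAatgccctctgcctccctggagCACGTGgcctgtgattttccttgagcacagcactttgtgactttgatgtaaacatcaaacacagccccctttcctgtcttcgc
CD247: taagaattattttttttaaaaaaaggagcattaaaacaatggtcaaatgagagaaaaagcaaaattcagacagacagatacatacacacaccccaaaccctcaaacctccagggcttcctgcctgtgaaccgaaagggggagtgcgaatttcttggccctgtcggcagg
THEMIS: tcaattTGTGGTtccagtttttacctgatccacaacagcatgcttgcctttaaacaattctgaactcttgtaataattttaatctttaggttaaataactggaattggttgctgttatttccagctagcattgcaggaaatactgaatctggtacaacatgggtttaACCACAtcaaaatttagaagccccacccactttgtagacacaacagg
PTPN22: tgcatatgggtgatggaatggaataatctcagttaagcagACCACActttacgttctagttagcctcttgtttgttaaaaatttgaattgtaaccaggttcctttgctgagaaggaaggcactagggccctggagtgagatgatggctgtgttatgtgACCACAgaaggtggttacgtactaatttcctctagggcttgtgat
SOS2: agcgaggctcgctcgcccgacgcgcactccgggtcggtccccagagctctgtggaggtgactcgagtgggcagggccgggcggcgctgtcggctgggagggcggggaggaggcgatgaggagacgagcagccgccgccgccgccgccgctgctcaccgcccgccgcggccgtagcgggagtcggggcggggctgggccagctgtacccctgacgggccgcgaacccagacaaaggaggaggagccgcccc
In the ZAP70 window CACGTG begins 99 bases before the RefSeq start, with a CCGGAA upstream of it, and neither is in the other windows shown. RUNX cores are present in CD3D, which fell, and in THEMIS and PTPN22, which rose. Windows were found for 33 members, some with several starts. CACGTG was in a 250-base window of 3 of the 33 (RHOH, VAV2 and ZAP70) against 6.3% of all 35116 windows. CCGGAA was in 3 against 14.5% of all, TGTGGT in 9 against 11.0%, and CAGGTG in 13 against 17.5%. The 13 include CD247, THEMIS and ZAP70, whose match lies in bases or windows not printed here. A member with several windows has more chances of a match than a single window. SOS2 differs from the others in base composition, with 76.8% G and C against 36.9% in THEMIS. These matches describe the letters only.

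Scaffolds and adaptors, 14 genes, gave 5 rises, 4 falls and 5 that did not pass, with a median of 0.02. The share that changed was 64.3%, near the 58.8% of all genes at a mean of at least 10 CPM. LAT, the membrane scaffold that ZAP70 phosphorylates (chromosome 16, 28984826 to 28990783), was at 106 and 105 CPM with FB23-2 and 101 and 104 CPM in control. The difference of 0.04 ± 0.05 did not pass (edgeR adjusted p = 0.592), and its sign turned to -0.0045 with upper quartile scaling and to -0.0016 without control replicate 1. LAT shares 47.7% of its exon bases with a transcript of another ID on the same strand, which had 858 and 254 counts under FB23-2 and 513 and 414 in control. LCP2, also called SLP-76, the cytosolic scaffold that joins LAT, was at 55.9 and 55.4 CPM against 70.8 and 69.1 CPM (-0.33 ± 0.06, edgeR adjusted p = 0.00128). GRAP2, the adaptor that links LCP2 to LAT, fell most of the adaptors, from 45.4 and 46.0 CPM to 25.2 and 21.5 CPM (-0.97 ± 0.09, edgeR adjusted p = 2.87e-05). Its relative GRB2, which carries SOS to LAT, rose by 0.29 ± 0.04 (edgeR adjusted p = 4.12e-04). The GRB2 to GRAP2 ratio per exon base was 14.2 and 16.1 with FB23-2 and 6.42 and 6.2 in control.

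THEMIS, an adaptor needed for thymocyte selection (chromosome 6, 127708072 to 127918631), had the largest rise of the module. It was at 62.0 and 64.0 CPM with FB23-2 and 34.4 and 33.6 CPM in control (0.89 ± 0.06, edgeR adjusted p = 7.55e-06). Both treated libraries lay well above both controls. SKAP1, which couples the receptor to integrins, was at 33.2 and 32.7 CPM against 23.6 and 21.4 CPM (0.56 ± 0.09, edgeR adjusted p = 6.53e-04). FYB1, the partner of SKAP1, had a small fall of -0.18 ± 0.04 (edgeR adjusted p = 0.00925) that was not called without control replicate 2 (0.0625, all alternatives giving 0.00316 to 0.0625). SH2D1A, the adaptor of SLAM-family receptors, fell by 0.43 ± 0.05 on the log2 scale (edgeR adjusted p = 8.79e-05). NCK2, which links tyrosine phosphorylation to actin, rose by 0.32 ± 0.07 (edgeR adjusted p = 0.00413). Its paralog NCK1 passed in the full comparison (0.20 ± 0.06, edgeR adjusted p = 0.0236), but not when any 1 library was left out (0.0554 to 0.127), with upper quartile scaling (0.0602), with no filter (0.0556) or with DESeq2 (0.0694), all alternatives giving 0.00848 to 0.127.

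SH2D2A (0.33 ± 0.13), TRAT1 (-0.06 ± 0.08), TESPA1 (-0.08 ± 0.05) and CD2AP (-0.01 ± 0.06) were the other adaptors that did not pass. SH2D2A, a T cell adaptor that binds LCK, had an edgeR adjusted p of 0.0673 and passed with scaling by library size alone (0.0431, all alternatives giving 0.0431 to 0.235).

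**Figure D3:**
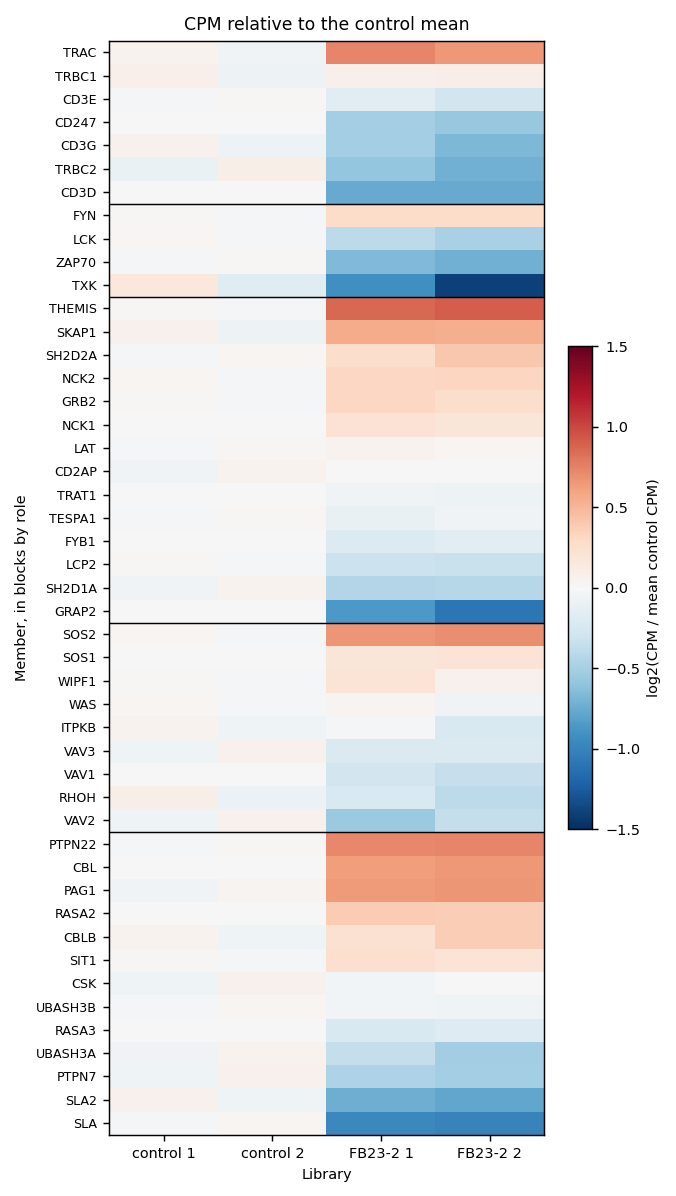
Level of each gene in each of the 4 libraries as log2 of its CPM over the mean CPM of the control libraries (colour scale, red above and blue below), with genes in rows in blocks by role. The 2 FB23-2 columns resemble each other in most rows, with THEMIS, TRAC and PTPN22 among the reddest and TXK, GRAP2 and SLA among the bluest.

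Exchange factors, which load small GTPases with GTP, included genes that rose and genes that fell. The calls of SOS1, VAV2 and VAV3 depended on the settings or libraries used. At a mean of at least 10 CPM, 31.6% of all genes rose and 27.2% fell. SOS2, an activator of RAS (chromosome 14, 50117120 to 50231558), was at 79.5 and 81.7 CPM with FB23-2 and 51.2 and 49.2 CPM in control. The rise was 0.69 ± 0.06 (edgeR adjusted p = 1.77e-05). SOS1 passed only narrowly (0.19 ± 0.06, edgeR adjusted p = 0.0303) and did not pass when any 1 library was left out (0.0968 to 0.137), with upper quartile scaling (0.0773), with no filter (0.0577) or with DESeq2 (0.0857), all alternatives giving 0.0115 to 0.137. The SOS2 to SOS1 ratio per exon base was 1.93 and 1.95 against 1.4 and 1.35 in control. All 3 VAV genes, activators of RAC that act in cytoskeletal remodelling, were lower. VAV1, the form of blood cells, fell by 0.30 ± 0.05 on the log2 scale (edgeR adjusted p = 9.64e-04). VAV2 (-0.47 ± 0.12, edgeR adjusted p = 0.0135) was not called without FB23-2 replicate 1 (0.0762) or control replicate 2 (0.131), all alternatives giving 0.00864 to 0.131. VAV3 (-0.22 ± 0.06, edgeR adjusted p = 0.0161) was not called without FB23-2 replicate 2 (0.0633) or control replicate 2 (0.175), nor with library size scaling (0.0504), no filter (0.0503) or DESeq2 (0.0536), all alternatives giving 0.00722 to 0.175. The VAV1 to VAV3 ratio overlapped between the groups, at 2.32 and 2.22 against 2.52 and 2.32.

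RHOH, a GTPase of blood cells that brings ZAP70 to the receptor, fell by 0.30 ± 0.08 on the log2 scale (edgeR adjusted p = 0.0152). It was not called without FB23-2 replicate 2 (0.0955) or control replicate 1 (0.0779), nor with no filter (0.0545), all alternatives giving 5.73e-04 to 0.0955. The actin regulators WAS (0.0 ± 0.07) and WIPF1 (0.14 ± 0.07) did not pass, nor did ITPKB, the kinase of inositol trisphosphate (-0.12 ± 0.08). WIPF1 passed with library size scaling (edgeR adjusted p = 0.0492, all alternatives giving 0.0492 to 0.668).

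The 13 brakes divided into 6 that rose and 5 that fell, with a median of -0.03. Among all genes at a mean of at least 10 CPM, 31.6% rose and 27.2% fell. SLA, an adaptor that directs receptor chains to degradation, had the second largest fall of the module, from 147 and 152 CPM in control to 76.8 and 74.5 CPM with FB23-2 (-0.98 ± 0.05, edgeR adjusted p = 1.12e-06). Its paralog SLA2 was at 24.9 and 24.0 CPM against 43.1 and 39.4 CPM (-0.75 ± 0.08, edgeR adjusted p = 8.25e-05). SLA2 shares 8.7% of its exon bases with RAB5IF on the opposite strand, whose log2 fold change was 0.0. PTPN7, a phosphatase of ERK and p38, fell by 0.48 ± 0.06 on the log2 scale (edgeR adjusted p = 1.18e-04).

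The ubiquitin ligase gene CBL, which marks receptors and kinases for turnover, was at 294 and 299.7 CPM with FB23-2 and 190.0 and 191 CPM in control (0.64 ± 0.04, edgeR adjusted p = 3.05e-06). It lies on chromosome 11 from 119206276 to 119313926 and shares 4.3% of its exon bases with MCAM on the opposite strand. Both treated libraries were far above both controls. CBLB, the ligase that enforces the need for costimulation, rose less (0.31 ± 0.08, edgeR adjusted p = 0.0121) and was not called without FB23-2 replicate 2 (0.0815) or control replicate 2 (0.117), all alternatives giving 0.00615 to 0.117. PTPN22, the phosphatase that acts on LCK and ZAP70 (chromosome 1, 113813811 to 113871759), was at 54.9 and 55.3 CPM against 32.9 and 33.8 CPM (0.72 ± 0.07, edgeR adjusted p = 2.82e-05). PAG1, the membrane anchor of the LCK-inhibiting kinase CSK, was at 59.8 and 60.6 CPM against 37.1 and 39.6 CPM (0.64 ± 0.07, edgeR adjusted p = 5.48e-05). CSK itself did not pass (-0.03 ± 0.05, edgeR adjusted p = 0.719). The inhibitory transmembrane adaptor SIT1 rose slightly (0.23 ± 0.05, edgeR adjusted p = 0.00743), but was not called without FB23-2 replicate 1 (0.0684) or control replicate 2 (0.0719), all alternatives giving 0.0024 to 0.0719.

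RASA2, which switches RAS off, rose by 0.37 ± 0.05 (edgeR adjusted p = 2.81e-04). Its relative RASA3 fell by 0.21 ± 0.05 on the log2 scale (edgeR adjusted p = 0.0103, or 0.0764 without control replicate 2, all alternatives giving 0.00426 to 0.0764). The RASA2 to RASA3 ratio per exon base was 1.2 and 1.16 with FB23-2 and 0.789 and 0.779 in control. Which of the pair was the more abundant depends on the exon lengths used. UBASH3A, a T cell suppressor of receptor signalling, fell by 0.44 ± 0.10 on the log2 scale (edgeR adjusted p = 0.00642, or 0.0752 without control replicate 2, all alternatives giving 0.00399 to 0.0752). UBASH3B, its more widely expressed relative with strong phosphatase activity, did not pass (-0.05 ± 0.05). The ratio of the phosphatase PTPN7 to PTPN22 was 1.4 and 1.34 against 3.07 and 3.27 in control.

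**Figure D4:**
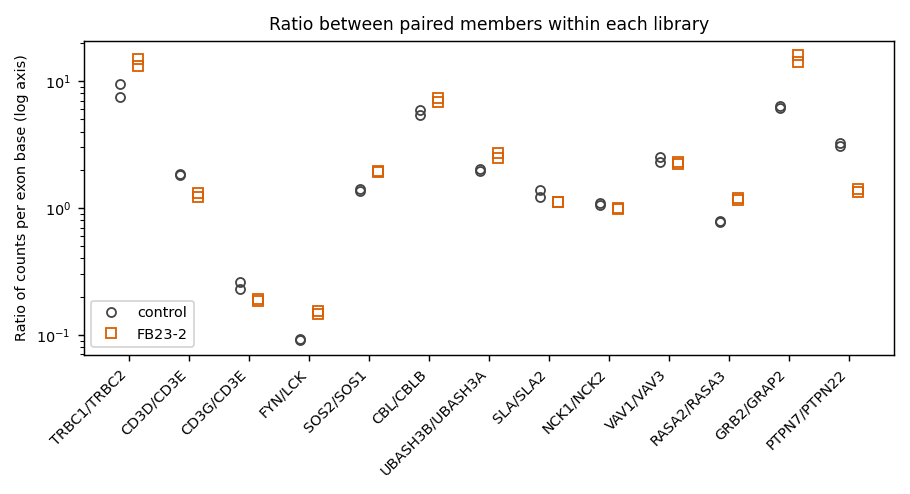
Ratio of counts per exon base (log axis) between 13 pairs of members within each library, with open circles for control and open squares for FB23-2. The pairs were chosen after values were seen. Their groups do not overlap for 12 pairs and overlap for VAV1/VAV3. Single genes of all levels, not ratios, do not overlap in 70.8% of cases. FYN/LCK, RASA2/RASA3, GRB2/GRAP2 and PTPN7/PTPN22 show clear steps between the groups.

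Beyond the 47 genes, 69 further genes of the pathway were followed, 62 of which were tested. Of these 19 rose, 16 fell and 27 did not pass, or 56.5% changed, with a median of 0.08. That share lies near the background of 42.1% over all tested genes and 58.8% at a mean of at least 10 CPM. With upper quartile scaling 15 rose and 19 fell. Leaving out control replicate 1 or 2 reduced the rises to 11 and 12. Among genes known to respond to receptor engagement, 4 of 8 tested rose and 0 fell, beside rises in 21.8% of all tested genes and 31.6% at a mean of at least 10 CPM. CD69, an early activation marker, was at 20.6 and 19.0 CPM with FB23-2 and 8.05 and 8.57 CPM in control (1.25 ± 0.12, edgeR adjusted p = 3.57e-05). IL2RA, a chain of the interleukin-2 receptor, was low in both groups, at 1.99 and 2.19 CPM against 0.332 and 0.581 CPM (2.12 ± 0.38, edgeR adjusted p = 0.00178). EGR1 (0.83 ± 0.15, edgeR adjusted p = 0.00155) and FOS (1.46 ± 0.36, edgeR adjusted p = 0.00955), transcription factors of the immediate early response, also rose. The FOS call was lost on leaving out FB23-2 replicate 1 (0.0665), control replicate 1 (0.0688) or control replicate 2 (0.0544), all alternatives giving 0.00725 to 0.0688. NR4A1 (0.16 ± 0.18, edgeR adjusted p = 0.526) and NFATC1 (0.03 ± 0.08, edgeR adjusted p = 0.827) did not pass, and their groups overlapped. The scarce EGR2 (0.76 ± 0.6) and NR4A3 (1.82 ± 0.79) did not pass either. IL2 had 0 counts in all libraries.

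GAB2, an adaptor that recruits the phosphatase SHP-2, had the third highest rise of the further genes, from 48.1 and 51.5 CPM to 127 and 123 CPM (1.32 ± 0.06, edgeR adjusted p = 6.05e-07). The costimulatory receptor ICOS (0.77 ± 0.22, edgeR adjusted p = 0.0205) was not called when any 1 library was left out (0.0597 to 0.138) or with DESeq2 (0.0936), all alternatives giving 0.0155 to 0.138. Its level was low, at 3.79 and 3.75 CPM with FB23-2 and 2.28 and 2.15 CPM in control. PTCRA, the surrogate alpha chain of immature thymocytes, fell most, from 4.69 and 5.93 CPM to 1.47 and 1.38 CPM (-1.92 ± 0.25, edgeR adjusted p = 2.26e-04), the opposite direction to TRAC. CD6, a receptor that modulates signalling, was at 25.8 and 28.2 CPM against 64.5 and 60.7 CPM (-1.21 ± 0.07, edgeR adjusted p = 3.1e-06). SYK, the relative of ZAP70, was at 43.7 and 39.1 CPM against 73.4 and 72.1 CPM (-0.81 ± 0.07, edgeR adjusted p = 1.88e-05). The transmembrane adaptors LIME1 (-0.72 ± 0.09, edgeR adjusted p = 1.69e-04) and LAX1 (-0.71 ± 0.12, edgeR adjusted p = 0.00121) fell as well. PSTPIP1 (-0.92 ± 0.25, edgeR adjusted p = 0.0141) was not called with DESeq2 (0.0741) or without FB23-2 replicate 1 (0.0566), FB23-2 replicate 2 (0.0565) or control replicate 2 (0.147), all alternatives giving 0.00973 to 0.147. PLCG1 RNA was present despite the known lack of the enzyme, at 295 and 291 CPM with FB23-2 and 265 CPM in both controls. Its rise of 0.14 ± 0.04 (edgeR adjusted p = 0.0125) was not called with upper quartile scaling (0.0516) or on leaving out FB23-2 replicate 1 (0.0872), control replicate 1 (0.13) or control replicate 2 (0.0932), all alternatives giving 0.00251 to 0.13.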

How the data were processed

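The authors deposited a single table of unnormalised counts, with Ensembl genes against 4 libraries. Per the submitters' processing notes, HISAT2 2.2.0, StringTie and the hg38 build were used. Which annotation, strand option and counting step produced the table is not given in the sources used here, so antisense overlaps could mix reads. Trizol extraction and an Illumina TruSeq kit are stated in the labels' protocols. Symbols were matched through a table of gene IDs and symbols, and positions, exon lengths and overlaps were taken from GENCODE release 29 on the same build.

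Genes were kept by filterByExpr (minimum count 10), scaled by TMM and compared with the quasi-likelihood test of edgeR 4.0.16 in R 4.3.3 (glmQLFit with robust estimation), with Benjamini-Hochberg adjustment over all 18817 tested genes and a threshold of 0.05. The SE is the absolute log2 fold change over the square root of F. P-values rest on the spread between 2 libraries per group, with the spread of each gene moderated by that of the other tested genes. A chi-square comparison of counts, divided by its degrees of freedom, gave 7.16 within FB23-2, 8.09 within control and 83 to 92 across groups, so no library was a copy of another. The fit was tested on simulated data. Alternatives were scaling, filter, DESeq2 1.42.0, a replicate block, non-robust estimation and leaving out each library.

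The members and lists were chosen with earlier results of these data known. Values in every library are given for receptor chains, LCK, ZAP70, LAT, LCP2 and other members past the threshold with an absolute log2 fold change of at least 0.5 and at least 1 CPM. Of the further pathway genes, the 6 highest and 6 lowest log2 fold changes past the threshold were named. PLCG1, the variable segments, other genes named at 0 counts, the pairs, the motifs and the promoter windows were chosen after values were seen. Windows on chromosome 8, where SLA lies, were not considered for printing. The level that 3 counts correspond to covers counting error only.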

Additional observations from a re-analysis of the deposited data

How the results depend on the processing

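Of the 36 members that passed, 24 stayed past the threshold under all 12 alternatives, and 3 others (TRBC1, SH2D2A and WIPF1) passed under library size scaling alone. Counts of members stayed within 1.5 times: rises were 11 to 18 (15 as reported) and falls 15 to 21 (21). With 1 library left out, rises were 11 to 13 and falls 15 to 20, the lowest being without control replicate 2, where 10 calls were lost. Further pathway genes gave 11 to 16 rises (19 as reported) with 1 library left out. Signs turned for 4 members near 0 that never passed. LAT went to -0.0045 with upper quartile scaling, and ranged from -0.0016 (without control replicate 1) to 0.06 with 1 library left out. CD2AP went to 0.04 with library size alone, 0.0048 with DESeq2, and ranged from -0.08 to 0.05 (without control replicate 2). WAS went to 0.04 with library size alone, 0.0055 with DESeq2, and ranged from -0.07 to 0.04, being 0.0068 without control replicate 1 and 0.04 without FB23-2 replicate 2. CSK went to 0.02 with library size alone, and ranged from -0.1 to 0.04 (without control replicate 2). The cause was not tested. Scaling moved the median of all genes by no more than 0.05 (log2). Same-numbered libraries share only a number in the labels; their deviations from the group means correlated at 0.245 over 11851 genes. With a replicate block, 15 members rose and 21 fell, the same calls as without it for all 47, and 20 and 16 further pathway genes. Depth limits TXK and other genes of few counts most.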
